A study of Mus musculus with 11 samples.

Results

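In quiescent satellite cells (QSCs) of young mice, 1373 of 24701 H3K4me3 sites passed a score minimum and had no counterpart after activation. They were the H3K4me3 peaks with a score of at least 100 that touched neither an H3K4me3 peak of activated satellite cells (ASCs) nor an H3K27me3 peak of the same QSCs. The score is the one that the peak caller MACS writes for each peak, on which 100 stands for a p-value of 1e-10. Of the 24701 peaks, 18768 reached this score, 15815 of these had no H3K27me3 in QSCs, and 1373 of the 15815 (8.68%) had no H3K4me3 peak in ASCs. The other 14442 sites, which overlapped an ASC peak, are called retained here and serve as the comparison. The sites were thus chosen by the H3K4me3 score in QSCs, the H3K4me3 peaks of ASCs and the H3K27me3 peaks of QSCs, and these values are given only as a description.

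All cells came from hindlimb muscle of male C57BL/6 mice and were sorted as VCAM+ / CD31- / CD45- / Sca1-. QSCs were taken from healthy mice of 2 to 3 months (young) and of 22 to 24 months (old). The sample labels describe ASCs as sorted young QSCs kept for 3 days on an ECM-coated surface in F10 medium with horse serum, whereas the paper speaks of satellite cells activated by injury. There was 1 ChIP-seq library for each cell state and mark, namely H3K4me3, H3K27me3 and H3K36me3 in young QSCs and ASCs, and H3K4me3 and H3K27me3 in old QSCs, besides 3 input libraries. Crosslinked cells were stored until enough had been gathered, and how many mice stood behind a library is not given in the sources used here. The lists held from 11658 peaks (H3K27me3 in young QSCs) to 42880 peaks (H3K36me3 in ASCs). With no replicates and an unknown read depth, cell states were not tested against each other, and the Wilson 95% intervals below cover counting error only. Whether the sorted cells carried the chromatin of satellite cell markers was not checked, because no gene positions in the build of the lists (mm9, per the submitters' processing notes) were used here.

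Satellite cells are the stem cells of skeletal muscle. They lie beneath the basal lamina of the myofiber in a resting state and enter the cell cycle after injury. H3K4me3 is laid down by COMPASS-type methyltransferases and typically forms a sharp peak over active or poised promoters. H3K36me3 is deposited by SETD2, which travels with elongating RNA polymerase II, so that it typically covers the bodies of transcribed genes and is low at their promoters. H3K27me3 is made by the Polycomb repressive complex with EZH2 as its catalytic subunit and accompanies silenced genes.

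The absent sites were narrow and low in the QSC list. Their median width was 1023 bp (95% interval 1009 to 1046), with quartiles of 880 and 1278 bp and a range of 325 to 4024 bp. Retained sites had a median width of 1656 bp (1644 to 1667). Among the absent sites, 623 (45.4%) were under 1 kb wide, 695 (50.6%) measured 1 to 2 kb, 46 (3.35%) measured 2 to 3 kb and 9 (0.655%) were wider. Sites of 3 kb or more were found more often among retained sites, of which 913 (6.32%) had this width.

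Most of this gap in width went along with the score. The median score was 141 for absent sites, 1655 for retained sites and 587 over all H3K4me3 peaks of young QSCs, and 1030 of the absent sites had a score between 100 and 200. In that range the median width was 988 bp (967 to 1005) for absent sites and 999 bp (982 to 1011) for the 1598 retained sites, so the intervals overlapped. They also overlapped at 200 to 400, with medians of 1159 bp (1124 to 1240) and 1167 bp (1146 to 1194), and at 400 to 1000, with 1405 bp (1241 to 1650) and 1382 bp (1361 to 1398). A further 280 absent sites scored 200 to 400, 53 scored 400 to 1000, and 10 scored 1000 or more. The share of sites that were absent in ASCs fell through these ranges from 39.2% to 16.7%, 2.42% and 0.107%. Because score and width went together, the comparisons of other marks are given within score ranges too. The ranges matched scores in part only, as absent sites still scored lower within each. Their median was 127 against 139 for retained sites at scores of 100 to 200. It was 254 against 282 at 200 to 400, and 510 against 673 at 400 to 1000.

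**Figure D1:**
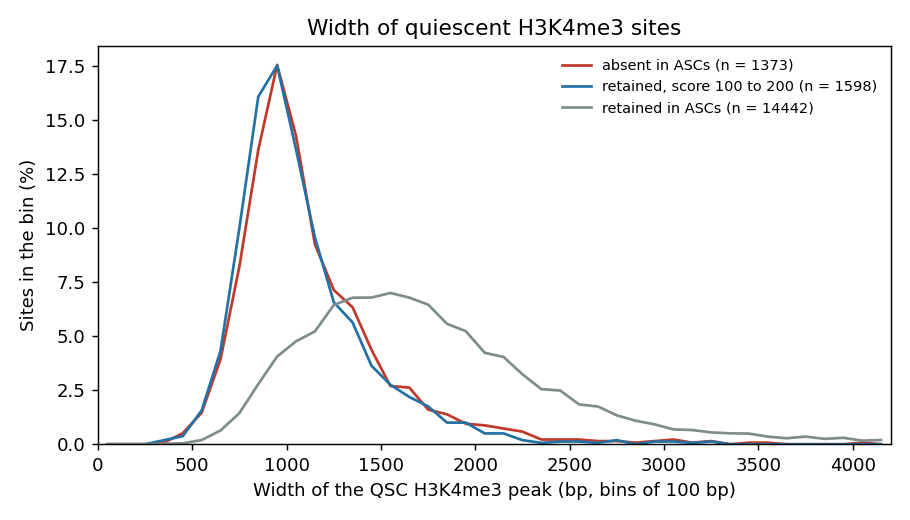
Distribution of the width of young QSC H3K4me3 sites, with the width in bins of 100 bp on the x axis and the percentage of sites per bin on the y axis; the few sites beyond the axis are not drawn. The curve of the 1373 absent sites lies near that of the 1598 retained sites with a score of 100 to 200 (median 999 bp) and to the left of all 14442 retained sites (median 1656 bp).

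At the score minimum the choice of sites was a matter of fractions of a unit. The 5 absent sites just inside had scores from the minimum itself up to 100.11, and the 5 just outside had scores of 99.85 to 99.98. Their widths were 528 to 1244 bp inside and 737 to 1051 bp outside. Of the 5 just inside, 3 overlapped an H3K36me3 peak of QSCs and 1 an H3K4me3 peak of old QSCs, and of the 5 just outside these counts were 0 and 3.

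H3K36me3 was called in the same QSCs at many of the absent sites. An H3K36me3 peak of young QSCs overlapped 547 of the 1373 sites (39.8%, 95% interval 37.3% to 42.5%), against 9.17% of all 15815 sites and 904 (6.26%, 5.88% to 6.67%) of the retained sites. The gap was present in every score range. It was 37.5% (34.6% to 40.5%) against 8.70% (7.41% to 10.2%) at scores of 100 to 200. At 200 to 400 it was 40.4% (34.8% to 46.2%) against 6.88% (5.67% to 8.33%), and at 400 to 1000 it was 71.7% (58.4% to 82.0%) against 4.73% (3.91% to 5.72%). All 10 absent sites with a score of 1000 or more had an H3K36me3 peak, compared with 6.10% of retained sites in that range. Among sites under 1 kb wide the shares were 35.2% (31.5% to 39.0%) and 4.60% (3.60% to 5.87%). The share of absent sites with H3K36me3 was thus higher above a score of 400 than below it, while that of retained sites lay between 4.73% and 8.70% in all ranges.

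Read the other way, QSC sites that carried H3K36me3 were more often absent in ASCs. Of the 1451 sites with both marks, 547 (37.7%, 35.2% to 40.2%) were absent, compared with 826 of 14364 sites without H3K36me3 (5.75%, 5.38% to 6.14%). The share absent among sites with H3K36me3 was 73.5% at scores of 100 to 200, 54.1% at 200 to 400, 27.3% at 400 to 1000 and 1.73% at 1000 or more. Without H3K36me3 it was 30.6%, 11.4%, 0.732% and 0 of 8747 sites. Every absent site with a score of 1000 or more was thus a site called for both marks.

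The H3K36me3 peaks at absent sites lay almost on top of the H3K4me3 peaks. The median distance between the centres of the 2 peaks was 81 bp at absent sites, 546 bp at retained sites and 268 bp at retained sites with a score of 100 to 200. Centres lay within 200 bp of each other at 416 of the 547 absent sites (76.1%, 72.3% to 79.4%) and at 30.2% (27.3% to 33.3%) of the 904 retained sites. At retained sites with a score of 100 to 200 it was 61 of 139 (43.9%, 35.9% to 52.2%). The H3K36me3 peak covered at least 80% of the H3K4me3 peak at 89.9% of absent sites and at 23.0% of retained sites. Among the narrower retained sites with a score of 100 to 200, this share was 75.5%. The H3K36me3 peaks themselves were of like width, with medians of 1321 bp at absent and 1330.5 bp at retained sites, and 22 of the 547 (4.02%) were wider than 5 kb. Their median H3K36me3 score was 226 at absent sites, 90.6 at retained sites and 83.8 over the whole H3K36me3 list. It was 114 at retained sites with an H3K4me3 score of 100 to 200. The overlap at absent sites was thus mostly with a narrow peak centred on the same place. The input libraries were not analysed here at these sites, and any part of the input or of a local bias shared by the QSC libraries in this overlap was not tested.

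**Figure D2:**
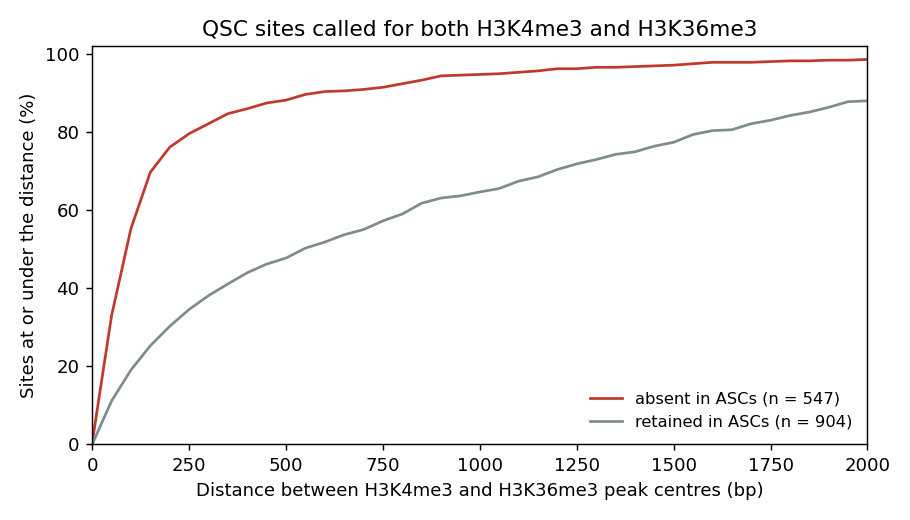
Cumulative percentage (y axis) of QSC sites called for both H3K4me3 and H3K36me3 against the distance between the centres of their 2 peaks in bp (x axis, shown up to 2000 bp). Within 200 bp lie 76.1% of the 547 absent sites and 30.2% of the 904 retained sites. Retained sites with a score of 100 to 200, at 43.9%, are not drawn apart.

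Split by this distance, sites with a central H3K36me3 peak were more often absent than sites with an off-centre one. Where the centres lay within 200 bp, 416 of 689 sites (60.4%, 56.7% to 64.0%) had no H3K4me3 peak in ASCs. Where they lay farther apart, 131 of 762 sites (17.2%, 14.7% to 20.0%) had none. The split was not made within ranges of score or width. Among sites with H3K36me3, 73.5% were absent at scores of 100 to 200 and 1.73% at 1000 or more. Retained sites with H3K36me3 scored higher than absent ones (1942 against 143 on the median) and were wider (2085 against 1074 bp). Whether peak position mattered apart from score and width was not tested.

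H3K36me3 was called less often at the absent sites in ASCs than in QSCs, although the ASC list was the longer of the 2. Retained sites differed in the same direction, with 6.26% in QSCs and 4.70% in ASCs. An H3K36me3 peak of ASCs overlapped 235 absent sites (17.1%, 15.2% to 19.2%), against 5.78% of all 15815 sites and 4.70% (4.37% to 5.06%) of retained sites. At scores of 100 to 200 the shares were 16.6% (14.5% to 19.0%) and 6.57% (5.46% to 7.89%). Of these 235 sites, 205 (87.2%, 82.4% to 90.9%) had carried H3K36me3 in QSCs, as had 57.3% of such retained sites and 74.3% (65.2% to 81.7%) of those with a score of 100 to 200. Thus 342 sites (24.9%, 22.7% to 27.3%) had H3K36me3 in QSCs and neither H3K36me3 nor H3K4me3 in ASCs. H3K36me3 was called in QSCs but not in ASCs at 515 retained sites (3.57%) and at 3.82% (2.98% to 4.87%) of those with a score of 100 to 200. These are shares of all sites of a set, and 39.8% of absent and 6.26% of retained sites had H3K36me3 in QSCs. Among sites with H3K36me3 in QSCs, the share with H3K36me3 in ASCs was 37.5% (33.5% to 41.6%) for absent and 43.0% (39.8% to 46.3%) for retained sites, with overlapping intervals. At scores of 100 to 200 it was 38.6% (33.9% to 43.5%) for absent and 56.1% (47.8% to 64.1%) for retained sites.

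H3K27me3, which no absent site carried in QSCs by the rule, was called in ASCs at 369 of them (26.9%, 24.6% to 29.3%). The background was 13.7% of all 15815 sites, and the share of retained sites was 12.5% (11.9% to 13.0%). At scores of 100 to 200 it was called at 278 of 1030 absent sites (95% interval 24.4% to 29.8%) and at 15.4% (13.7% to 17.2%) of retained sites. At 200 to 400 the shares were 24.6% (20.0% to 30.0%) and 20.9% (18.9% to 23.1%), and at 400 to 1000 they were 26.4% (16.4% to 39.6%) and 18.7% (17.1% to 20.5%). The intervals overlapped in both of these ranges, so that absent and retained sites could not be told apart there. Of the 10 absent sites with a score of 1000 or more, 8 carried H3K27me3 in ASCs, against 9.28% of retained sites. All 10 had H3K36me3 in QSCs, and retained sites of that range with H3K36me3 carried H3K27me3 in ASCs at 15.1% (12.4% to 18.3%).

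The ASC H3K27me3 peaks at absent sites had a median width of 928 bp, against 866 bp over the whole list and 980 bp at retained sites with a score of 100 to 200. Their centres lay a median of 111 bp from those of the H3K4me3 peaks, and 3 of the 369 (0.813%) were wider than 5 kb. Their median score was 131, compared with 201 at retained sites, 183 at those with a score of 100 to 200 and 97.1 over the whole list. H3K27me3 in ASCs went along with H3K36me3 in QSCs, which 205 of the 369 sites (55.6%, 50.5% to 60.5%) had carried. With H3K36me3 in QSCs, 37.5% (33.5% to 41.6%) of absent sites had H3K27me3 in ASCs, and without it 19.9% (17.3% to 22.7%) had. Retained sites differed in the same direction, with 20.0% (17.5% to 22.8%) and 12.0% (11.4% to 12.5%). Among sites with H3K36me3 at scores of 100 to 200, the shares were 37.8% (33.1% to 42.8%) of absent and 25.2% (18.7% to 33.0%) of retained sites. At 200 to 400 they were 34.5% (26.4% to 43.7%) and 28.1% (20.1% to 37.8%). At 400 to 1000 they were 31.6% (19.1% to 47.5%) and 32.7% (24.3% to 42.3%), and the intervals overlapped in both of these higher ranges. Among sites without H3K36me3 the shares of absent and retained sites were 20.5% (17.6% to 23.8%) and 14.5% (12.8% to 16.4%) at scores of 100 to 200, and 18.0% (12.9% to 24.5%) and 20.4% (18.3% to 22.7%) at 200 to 400, where the intervals overlapped.

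Taking both marks of ASCs together, absent sites were left without either less often than retained sites. Neither H3K27me3 nor H3K36me3 was called at 856 absent sites (62.3%, 59.8% to 64.9%), against 83.4% of retained sites and 79.3% (77.2% to 81.2%) of those with a score of 100 to 200. H3K27me3 without H3K36me3 was called at 282 absent sites (20.5%), H3K36me3 without H3K27me3 at 148 (10.8%) and both at 87 (6.34%, 5.17% to 7.75%). H3K27me3 without H3K36me3 was called at 11.9% of retained sites, and H3K36me3 without H3K27me3 at 4.11%. At scores of 100 to 200 these shares were 21.7% (19.2% to 24.3%) and 11.3% (9.47% to 13.3%) of absent sites. For retained sites they were 14.1% (12.5% to 15.9%) and 5.32% (4.32% to 6.53%). Both marks were called at 86 retained sites (0.595%) and at 1.25% (0.812% to 1.93%) of those with a score of 100 to 200.

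In old QSCs, the H3K4me3 call was found again at about as many absent sites as it was missing from. An H3K4me3 peak of old QSCs overlapped 709 absent sites (51.6%, 49.0% to 54.3%), while 664 had none. The background was 93.2% of all 15815 sites, and 97.1% (96.8% to 97.4%) of the retained sites had one. At scores of 100 to 200 the shares were 49.1% (46.1% to 52.2%) and 78.6% (76.5% to 80.5%), and at 200 to 400 they were 62.1% (56.3% to 67.6%) and 95.1% (93.8% to 96.1%). Many of these old peaks were weak. Their median score at absent sites was 111, against 717 over the old list and 152 at retained sites with a score of 100 to 200. With old peaks of a score of at least 100 alone, the share of absent sites was 29.1% and that of all retained sites 94.0%. Where an old peak was found, it scored at least 100 at 56.4% (52.7% to 60.0%) of absent sites. This share was 73.2% (70.7% to 75.6%) for retained sites with a score of 100 to 200.

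Where a site matched a single H3K4me3 peak in old QSCs, the widths of both were alike on the median and single sites went either way. The 701 such sites had a median width of 1039 bp in young mice and of 1041 bp in old mice, and the median log2 ratio of old to young width was 0.02. The old peak was the wider at 51.6% of them (47.9% to 55.3%), compared with 59.6% (56.8% to 62.3%) of retained sites with a score of 100 to 200.

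The share found again in old QSCs differed between absent sites with and without H3K36me3 in young QSCs. With H3K36me3, 167 of 547 sites (30.5%, 26.8% to 34.5%) had H3K4me3 in old QSCs. Without it, 542 of 826 (65.6%, 62.3% to 68.8%) had. For retained sites the shares were 94.5% (92.8% to 95.8%) and 97.3%. The intervals of the absent classes lay far apart, whereas those of retained sites differed by a few percentage points.

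This difference grew with the H3K4me3 score. Absent sites with H3K36me3 were found again in old QSCs in 31.3% (26.9% to 36.1%) at scores of 100 to 200, 28.3% (20.8% to 37.2%) at 200 to 400, 26.3% (15.0% to 42.0%) at 400 to 1000 and 4 of 10 above. Those without H3K36me3 were found in 59.8% (55.9% to 63.5%), in 142 of 167 (85.0%, 78.8% to 89.6%) and in 15 of 15 at scores of 400 to 1000, where the interval reached down to 79.6%. Retained sites without H3K36me3 stood at 78.8% (76.7% to 80.8%) and 95.6% (94.4% to 96.6%) in the lower 2 ranges. Absent sites with H3K36me3 thus stayed low at every score, while those without it approached the retained sites as the score rose.

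**Figure D3:**
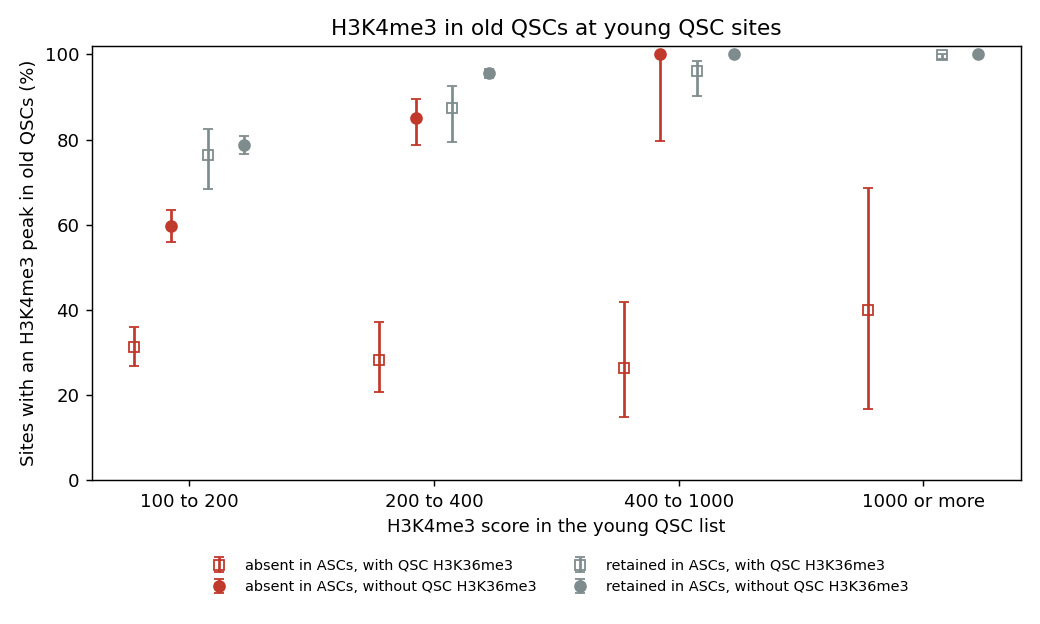
Percentage of young QSC H3K4me3 sites with an H3K4me3 peak in old QSCs (y axis) by the H3K4me3 score in young QSCs (x axis), for absent (red) and retained (grey) sites with (open squares) and without (filled circles) H3K36me3 in young QSCs; bars are Wilson 95% intervals. Absent sites with H3K36me3 lie between 26.3% and 40.0% in all ranges, and absent sites without it rise from 59.8% to 15 of 15.

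The share also differed with the position of the H3K36me3 peak. Of absent sites with an H3K36me3 centre within 200 bp, 26.9% (22.9% to 31.4%) had H3K4me3 in old QSCs, and of those with a more distant centre 42.0% (33.9% to 50.5%) had. Retained sites with a centre within 200 bp had it in 92.3% (88.5% to 94.9%). Of the absent sites missing from the old list, 57.2% (53.4% to 60.9%) had carried H3K36me3 in young QSCs, against 23.6% (20.6% to 26.8%) of those found again.

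Combined with the marks of ASCs, the class with the lowest share in old QSCs was that with H3K36me3 in young QSCs and neither H3K36me3 nor H3K27me3 in ASCs. It held 221 absent sites (16.1%), of which 27 (12.2%, 8.53% to 17.2%) had H3K4me3 in old QSCs. The retained sites of the same class had it in 94.0% (91.2% to 95.9%), and the 45 of these with a score of 100 to 200 in 66.7% (52.1% to 78.6%). The largest class of absent sites was that with none of these marks, 635 sites (46.2%) with H3K4me3 in old QSCs at 63.0% (59.2% to 66.7%). It held 80.7% of retained sites and 76.5% of those with a score of 100 to 200, which had H3K4me3 in old QSCs at 97.1% and 76.7% (74.2% to 79.0%). The 161 sites with H3K27me3 in ASCs alone had it in 74.5% (67.3% to 80.6%), and the 84 sites with all of these marks in 47.6% (37.3% to 58.2%). Retained sites of these classes had it in 98.7% and 92.1%. Those with a score of 100 to 200 had it in 91.9% (87.4% to 94.9%) and 84.2% (62.4% to 94.5%).

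Old QSCs carried H3K27me3 at 256 absent sites (18.6%, 16.7% to 20.8%), against 8.09% of all 15815 sites and 7.08% (6.68% to 7.51%) of retained sites. At scores of 100 to 200 the shares were 20.2% (17.9% to 22.8%) and 12.0% (10.5% to 13.6%), and at 200 to 400 they were 13.9% (10.4% to 18.5%) and 14.3% (12.5% to 16.2%), with overlapping intervals. Of the 256 sites, 193 (75.4%, 69.8% to 80.3%) also had H3K27me3 in ASCs, as had 65.9% of such retained sites and 73.3% (66.6% to 79.1%) of those with a score of 100 to 200. H3K4me3 was called in old QSCs at 166 of the 256 (64.8%, 58.8% to 70.4%), against 99.2% of such retained sites and 96.9% (93.3% to 98.6%) of those with a score of 100 to 200. The other 90 sites, with H3K27me3 and no H3K4me3 in old QSCs, were 6.55% (5.36% to 7.99%) of the absent sites, and 8 retained sites (0.0554%) were in this state.

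Across the 5 lists that the rule did not use, 229 absent sites (16.7%) overlapped no peak at all, compared with 337 retained sites (2.33%). At scores of 100 to 200 the shares were 20.2% (17.9% to 22.8%) and 17.8% (16.0% to 19.7%), with overlapping intervals. At the other end, 305 absent sites (22.2%, 20.1% to 24.5%) overlapped peaks of at least 3 of these lists, against 1134 retained sites (7.85%, 7.42% to 8.30%). This gap was also present at scores of 100 to 200, where 230 of 1030 absent and 206 of 1598 retained sites (12.9%, 11.3% to 14.6%) overlapped at least 3 lists. All 5 lists were overlapped by 14 absent sites (1.02%, 0.608% to 1.70%) and by 14 retained sites (0.0969%). At scores of 100 to 200 this held for 8 of 1030 absent and 4 of 1598 retained sites, with overlapping intervals.

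**Figure D4:**
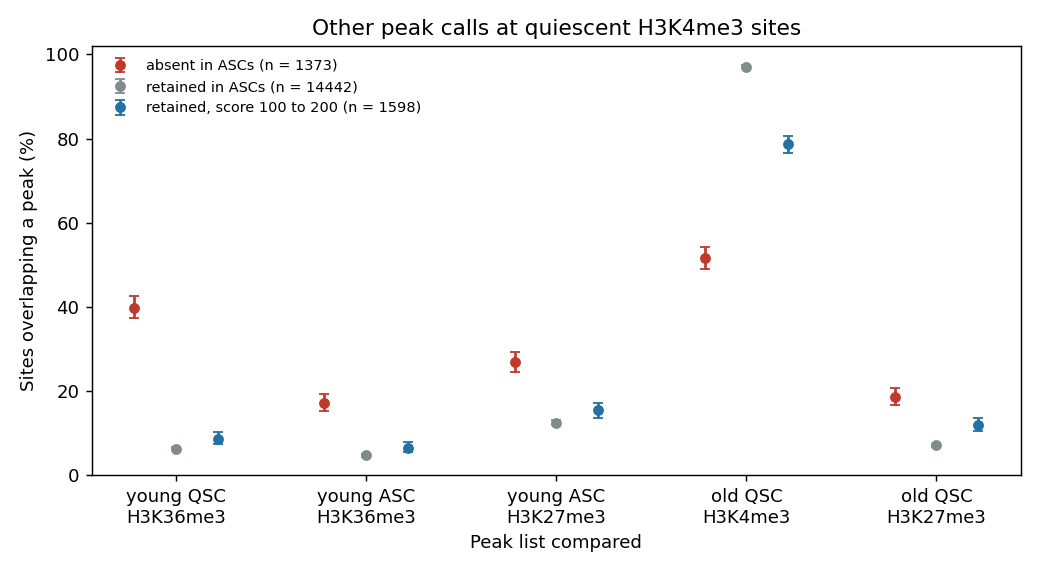
Percentage of young QSC H3K4me3 sites that overlap a peak of each of the 5 other lists (y axis), for the 1373 absent sites (red), all 14442 retained sites (grey) and the 1598 retained sites with a score of 100 to 200 (blue); bars are Wilson 95% intervals. The absent sites lie above both sets for H3K36me3 and H3K27me3 (39.8% against 6.26% and 8.70% for H3K36me3 in QSCs) and below both for H3K4me3 in old QSCs (51.6% against 97.1% and 78.6%).

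The absent sites with the highest scores show the overlap with H3K36me3 in detail, and positions below are mm9. The first 3 had a score of 3100, at which many peaks of the list are tied. Scores of different libraries are not on a common depth, so those set side by side below give no direction. At chr17:13742745-13746276 a peak of 3532 bp with a score of 3100 was matched by an H3K36me3 peak of the same QSCs, also with a score of 3100, whose centre lay 20 bp away. In ASCs the nearest H3K4me3 peak was 68131 bp away and an H3K27me3 peak with a score of 105 lay over the site. Old QSCs had H3K4me3 there with a score of 329 and H3K27me3 with a score of 896. On the same chromosome, chr17:13498677-13499599 (923 bp) had the same set of calls, with an H3K4me3 score of 2233 in young and 220 in old QSCs, an H3K36me3 score of 3100, and H3K27me3 scores of 111 in ASCs and 129 in old QSCs. Both sites thus had an H3K4me3 call in young and old QSCs, and an H3K27me3 call in ASCs and old QSCs.

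Other high-scoring sites had no H3K4me3 call in old QSCs. The site chr5:104759428-104761531 (2104 bp, score 3100) had H3K36me3 in QSCs with a score of 3100 and, in the other lists, an H3K27me3 peak of ASCs with a score of 96.8. At chr6:29697312-29699307 (1996 bp, score 3100) the H3K36me3 peak of QSCs, with a score of 3100, was the only call in the other lists. The same held for chr5:25321440-25324647 (3208 bp, score 1048), whose H3K36me3 peak of 3351 bp had a score of 3100 and a centre 6.5 bp away. At chr9:100957609-100959559 (1951 bp, score 1572) the H3K36me3 score was 1848 and H3K27me3 followed in ASCs with a score of 149. At chr11:88942748-88943714 (967 bp, score 1193) they were 2710 and 89.8. These sites had strong H3K4me3 and H3K36me3 calls in young QSCs and neither mark in ASCs.

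In 3 of the 10, H3K36me3 was also called in ASCs. At chr17:8148715-8150484 (1770 bp, score 2030) its score was 3100 in QSCs and 895 in ASCs, with H3K27me3 at 272 in ASCs and H3K4me3 at 84.9 in old QSCs. At chr8:13917690-13920695 (3006 bp, score 1400) it was 1944 in QSCs and 459 in ASCs, with H3K27me3 at 144 in ASCs and H3K4me3 at 67.7 in old QSCs. At chr12:114662157-114663842 (1686 bp, score 1079) it was 557 in QSCs and 75.6 in ASCs, and H3K27me3 reached 666 in ASCs.

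Of the 5 widest absent sites, 2 were also among the 10 with the highest scores. The widest absent site, chr15:75932709-75936732 (4024 bp), had an H3K4me3 score of 162 and lay under H3K36me3 peaks of 4206 bp in QSCs (score 951) and 4370 bp in ASCs (score 3100). H3K27me3 was called over it in ASCs with a score of 706 and in old QSCs with a score of 75.1. The site chr7:20281593-20285021 (3429 bp, score 841) had an off-centre H3K36me3 peak of QSCs with a score of 200 at 1095 bp, and its H3K4me3 score in old QSCs was 1453. In ASCs it had off-centre peaks of H3K36me3 (score 128, at 1136 bp) and H3K27me3 (score 54.2, at 1100.5 bp). The other sites among the 5 widest were chr17:13742745-13746276, chr5:25321440-25324647 and chr8:119083117-119086316 (3200 bp, score 539), of which the last had no call in the other lists besides H3K36me3 in QSCs with a score of 780.

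The 5 highest-scoring absent sites without H3K36me3 in QSCs, chosen after their values were seen, had another pattern. All 5 had H3K4me3 in old QSCs and no peak in the other lists. At chr10:76574693-76577244 (2552 bp) the H3K4me3 score was 994 in young and 886 in old QSCs, and at chr10:76187620-76189041 (1422 bp) it was 814 and 527. It was 768 and 1092 at chr1:166726470-166728883 (2414 bp), where the old peak spanned 3669 bp. At chr14:55672351-55673651 (1301 bp) the scores were 584 and 248, and at chr9:107509971-107511698 (1728 bp) they were 616 and 199. The last of these lay 121 bp from an H3K4me3 peak of ASCs, whereas the others were 13939 to 101159 bp from one.

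Most absent sites were well apart from any H3K4me3 peak of ASCs. The median distance to the nearest one was 15033 bp, with quartiles of 5335 and 45655 bp. Within 1 kb of such a peak lay 98 sites (7.14%), and within 5 kb 329 (24.0%). The nearest other H3K4me3 peak of QSCs was a median of 15660 bp away, compared with 16828 bp for retained sites, and the share within 1 kb was 9.69% (8.23% to 11.4%) against 9.74%. Retained sites with a score of 100 to 200 lay closer to another peak, with a median of 12040 bp and 18.2% (16.4% to 20.2%) within 1 kb. The nearest H3K27me3 peak of QSCs was a median of 133655 bp away for absent and 116751 bp for retained sites.

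The absent sites were found on all chromosomes but Y, where all 3 candidate sites were retained. The share of sites that were absent ranged from 6.58% (4.89% to 8.81%) on chromosome 13 to 11.8% (9.11% to 15.1%) on chromosome 18, and it was 6.59% on the X chromosome. Most stood alone, as 1113 had no other absent site within 50 kb. The other 260 (18.9%) formed 117 runs, of which 98 held 2 sites, 12 held 3 and 7 held 4.

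The 3 longest runs had retained sites between the absent ones. At chr4:132501525-132619742, 4 absent sites lay among 5 retained ones; 2 had H3K36me3 in QSCs and all 4 had H3K4me3 in old QSCs. The run chr11:74976052-75074290 held 4 absent and 4 retained sites, with H3K36me3 in QSCs at 2 of the absent ones and H3K4me3 in old QSCs at 2. In the run chr11:95381906-95472647, none of the 4 absent sites had H3K36me3 and 3 had H3K4me3 in old QSCs. The scores of these 12 sites ranged from 101 to 411, and none of the runs lacked H3K4me3 in ASCs over its whole length.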

How the data were processed

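H3K4me3, H3K27me3 and H3K36me3 were measured by ChIP-seq with 5 µg of antibody and 15 cycles of PCR amplification per library. The submitters' processing notes name Bowtie and the build mm9. For each of the 8 ChIP libraries the authors deposited a peak list with a score per peak. The peak names and the scores follow MACS, whose score is the negative log10 of the p-value multiplied by 10, so that 50 stands for 1e-05. Its version and the treatment of duplicate reads are not given in the sources used here. Read depth is unknown. Scores ranked and filtered peaks within a list. Scores of several lists are printed side by side for named regions, but not compared.

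Sites were selected, and those sharing at least 1 bp with a peak of another list counted, in Python 3.11.15 (pandas 2.3.3, numpy 2.4.6). Where a site overlapped several peaks of a list, the peak sharing the most bases was described. Shares carry Wilson 95% intervals (scipy 1.17.1), medians carry order-statistic intervals, and plots were drawn in matplotlib 3.10.9. The counting was tested on simulated data, and for 7 pairs of lists bedtools 2.31.1 gave equal counts. Samples were grouped by their labels. The sites, the named regions and the alternatives were chosen with earlier results of these data known. Named were the 10 sites with the highest score, the 5 widest, the 3 highest in each of 3 classes (H3K27me3 in ASCs, H3K36me3 in QSCs but not in ASCs, absent from old QSCs), the 3 longest runs with gaps of at most 50 kb and the 5 sites on each side of the score minimum. The gene and sequence tables at hand belong to another assembly, so genes, promoters and sequence were not analysed here. The alternatives were a score of at least 200, compared peaks or ASC peaks with a score of at least 100, an overlap of 50% of the shorter peak, and distances of 1 kb.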

Additional observations from a re-analysis of the deposited data

How the results depend on the processing

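There were 39 alternative values of the number, the width and the shares of the absent sites. Of these, 21 stayed within the interval or, for the count, within 1.5 times, and 18 moved by more. The direction against retained sites was not part of this count. A score of at least 200 left 343 sites with a median width of 1214 bp, and put H3K36me3 in QSCs at 46.9%, H3K4me3 in old QSCs at 59.2% and H3K27me3 in old QSCs at 14.0%, against 5.96%, 99.4% and 6.48% of retained sites. These sets differed in score, with medians of 271 for absent and 1914 for retained sites. Within scores of 200 to 400 the shares were 40.4%, 62.1% and 13.9%, against 6.88%, 95.1% and 14.3%. The gap in H3K27me3 of old QSCs was thus not seen in that range. With only compared peaks of a score of at least 100, the shares were 31.5% for H3K36me3 in QSCs, 13.1% for H3K36me3 in ASCs, 17.6% for H3K27me3 in ASCs, 29.1% for H3K4me3 in old QSCs and 10.6% for H3K27me3 in old QSCs, against 2.94%, 3.50%, 9.38%, 94.0% and 2.62% of retained sites. Counting compared peaks within 1 kb gave 42.5% for H3K36me3 in QSCs and 29.6% for H3K27me3 in ASCs, against 10.5% and 13.9%. The retained sites in these comparisons were of all scores. Without the sites that had H3K36me3 in QSCs, an alternative chosen after seeing the data, 826 sites were left with a median width of 1005 bp, and the shares were 3.63% for H3K36me3 in ASCs, 19.9% for H3K27me3 in ASCs, 65.6% for H3K4me3 in old QSCs and 13.8% for H3K27me3 in old QSCs. Retained sites without H3K36me3 in QSCs stood at 2.14%, 12.0%, 97.3% and 6.88%. At scores of 100 to 200 the shares were 3.42%, 20.5%, 59.8% and 15.1% of absent sites, against 1.85%, 14.5%, 78.8% and 11.9% of retained sites. There the intervals overlapped for H3K36me3 in ASCs and for H3K27me3 in old QSCs. When only ASC peaks with a score of at least 100 removed a site, 1818 sites were absent, and when an ASC peak within 1 kb also removed a site, 1275 were. No paired analysis was possible because each cell state and mark had 1 library, which also means that no library could be left out. A peak that is not called is not a mark that is not there, and at an unknown depth a weak site may fall under the minimum of a list.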

Other observations

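Under the score minimum lay a further 3545 young QSC H3K4me3 sites without H3K27me3 in QSCs and without H3K4me3 in ASCs, with a median width of 738 bp. H3K36me3 of young QSCs was called at 1042 of them (29.4%, 95% interval 27.9% to 30.9%), against 12.9% of all 24701 H3K4me3 peaks of young QSCs. H3K27me3 of ASCs was called at 834 (23.5%, 22.2% to 25.0%), against 26.0% of all. In old QSCs 994 (28.0%, 26.6% to 29.5%) had H3K4me3 and 911 (25.7%, 24.3% to 27.2%) had H3K27me3, against 80.5% and 21.1% of all. The sets compared here are unlike. All 24701 peaks include 3446 with H3K27me3 in QSCs, which the 3545 sites lack by choice, as well as retained and higher-scoring peaks. In addition, 147 sites with a score of at least 100 lacked H3K4me3 in ASCs but carried H3K27me3 in QSCs.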
